A study of Mus musculus with 20 samples.

Results

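Transcript levels of the mitochondrial ribosomal protein genes were examined in mouse embryonic stem cells with a deletion of Trim71 or with the R595H form of its protein. The genes were taken from the deposited expression table by their symbols, Mrpl or Mrps followed by a number and at most one letter. No measured value entered that rule, although earlier results of these data were known when it was set. The rule found 77 genes of the 13283 in the table, 48 of them Mrpl genes and 29 Mrps genes. TRIM71 is an RNA-binding protein and ubiquitin ligase of pluripotent cells, and the series set its deletion beside a change of a single residue.

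The 20 libraries were made by poly(A) mRNA sequencing of C57BL/6 cells labelled male, which grew in medium with fetal calf serum, LIF and the 2i inhibitors. Trim71-cond cells carry the floxed allele (Trim fl/fl in the labels) and Trim71-KO cells are labelled as the knockout, with 4 libraries each under the codes 1A, 2B, 3A and 3B. How the deletion was induced is not given in the sources used here. In a separate set of clones, 3 WT clones (C16, C7, C5), 3 heterozygous R595H/+ clones (C15, C21, C23) and 3 homozygous R595H/R595H clones (C14, C20, C24) gave 12 libraries, since C16, C14 and C15 were sequenced on both 20/1 and 5/2 by their titles. The libraries of one clone were averaged, so that n is 3 clones per genotype. Nothing in the labels says that the 4 libraries of a conditional group came from separate derivations, so their p-values measure the spread between these libraries.

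Values are on the deposited log2 scale, and the read depth behind them is unknown. Trim71 lay between 8.93 and 9.01 in the Trim71-cond libraries and between 7.43 and 7.53 in the Trim71-KO libraries, which do not overlap. In the clones it lay between 9.48 and 9.54 in WT, 9.51 and 9.63 in R595H/+, and 10.00 and 10.18 in R595H/R595H. The R595H/R595H libraries were thus above all libraries of the other clones. Of 10 markers of naive embryonic stem cells, 9 were at or above the filter of 3.32 in every library, whereas none of 5 primitive endoderm markers and none of 6 fibroblast markers were, 1 of the 6 being in the table at all. Of other lists, 3 of 5 neural progenitor markers (Nes, Olig2 and Sox11), 2 of 4 trophectoderm markers (Krt8 and Krt18) and 1 of 4 mesoderm markers (Eomes) were at or above the filter in every library, with Pax6, Cdx2, Elf5, T, Mixl1 and Mesp1 not among the genes of the table. Lars2, a mitochondrial leucyl-tRNA synthetase, stood apart: after back-transformation it took from 0.334% to 13.2% of a library's sum. Over 4 genes of the Y chromosome, the mean level was at least 5.22 in the conditional libraries and in clones C5, C15 and C21, and at most 4.36 in the other clones. Without clone C5 the clonal comparisons of members gave the same counts of calls.

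Mitochondria translate a small set of respiratory chain proteins from their own DNA, on ribosomes whose RNA is mitochondrial and whose proteins are all encoded in the nucleus. These proteins are made in the cytosol and imported. The small subunit binds the mRNA and reads its codons, and the large subunit joins the amino acids. Some subunits descend from bacterial ribosomal proteins and others were added during the evolution of mitochondria. Of the 77 genes, 16 encode small-subunit homologs of bacterial proteins, 10 other small-subunit proteins, 30 large-subunit homologs and 20 other large-subunit proteins. The last group includes Mrps18a and Mrps30, whose proteins sit in the large subunit despite their names. Mrps36 is counted as a member by its symbol, although its protein is now assigned to the α-ketoglutarate dehydrogenase complex.

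The genes were scattered over 17 chromosomes in the GENCODE vM21 annotation of GRCm38. A protein-coding gene that starts within 1000 bases on the opposite strand and points away was annotated for 23 of the 77 (29.9%), against 1533 of 13149 protein-coding genes of the table (11.7%). Pairs whose starts overlap a little were included, here those of Mrpl21, Mrpl27, Mrpl36, Mrpl44 and Mrps7, by 29 to 197 bases. Promoters, taken as 250 bases before to 50 bases after the RefSeq start on GRCm38.p6, were found for 68 of the 77 genes, 74 promoters in all. Short motifs were searched on both strands. They were the consensus NRF1 palindrome (in capitals in the Mrpl32 sequence), the ETS motif CCGGAAG, which GABP-type factors bind, the YY1 motif AAGATGGC, the E-box CACGTG and the TATA box TATAAA. No 2 matches of different motifs overlapped in these promoters.

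The ETS motif was found in a promoter of 36.8% of the 68 genes and of 19.5% of 10357 genes of the table. For the YY1 motif the shares were 17.6% and 5.12%, and for the NRF1 motif 4.41% and 2.33%. For the E-box they were 7.35% and 11.8%, and for the TATA box 7.35% and 8.65%, which is 5 of the 68 genes for each. Counted by promoter, the shares of the 74 member promoters and of all 32851 promoters of the RefSeq table were 33.8% and 8.86% for ETS, 16.2% and 2.75% for YY1, 4.05% and 0.971% for NRF1, 9.46% and 7.15% for the E-box, and 6.76% and 13.6% for the TATA box. The E-box was thus below the background by gene and above it by promoter. By promoter, the same E-box of Mrpl2 was counted more than once, in windows that overlap. No test of these shares was made. In 8 of the 12 members with a YY1 match, the match read forward and began between base 12 and base 37 of the transcript. Of 29 ETS matches, 24 began between 60 bases before and 50 bases into the transcript. A match describes letters in a window and does not show that a factor binds there.

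**Figure D1:**
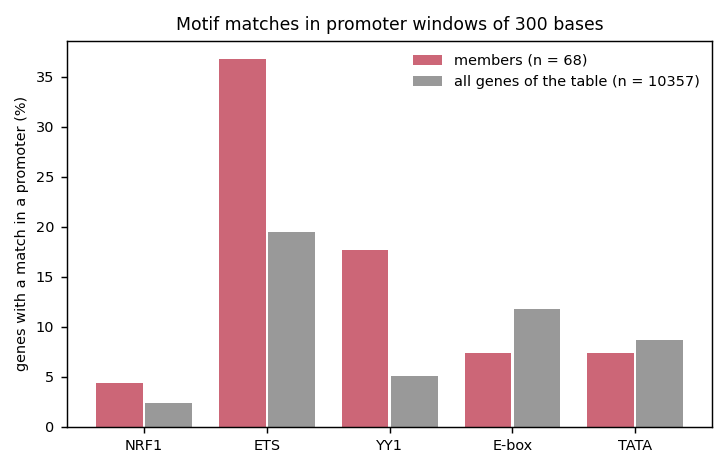
Share of genes with a motif match in a promoter window of 300 bases, in percent, for the 68 members with a promoter (red) and the 10357 genes of the table with one (grey). The ETS and YY1 bars of the members, 36.8% and 17.6%, are above those of the table, 19.5% and 5.12%.

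Promoters of 4 members whose transcripts differed between Trim71-KO and Trim71-cond are printed 5′ to 3′ along the gene's strand, with the motif matches in capitals. These 4 are the ones with a YY1 match. Of the other members that differed, Mrpl11 has no match and Mrpl17 has an ETS match, and no promoter was found for Mrpl13 and Mrpl15. All 4 printed promoters are on the minus strand of GRCm38.p6. Mrpl49 is at chr19:6057706-6058005 and has a YY1 match from base 17 of the transcript. Mrpl32 is at chr13:14612988-14613287 and has a reverse YY1 match from 242 bases before the start and an NRF1 match from 87 bases before it. Mrps12 is at chr7:28741772-28742071 and has a reverse YY1 match from 199 bases before the start and an ETS match from base 2. The reverse YY1 matches of Mrpl32 and Mrps12 lie beyond the start of the divergent neighbour, inside that gene. These neighbours are Psma2, 75 bases from Mrpl32, and Sars2, 172 bases from Mrps12. Mrps24 is at chr11:5707652-5707951 and has a reverse TATA match from 181 bases before the start and a YY1 match from base 37.
Mrpl49: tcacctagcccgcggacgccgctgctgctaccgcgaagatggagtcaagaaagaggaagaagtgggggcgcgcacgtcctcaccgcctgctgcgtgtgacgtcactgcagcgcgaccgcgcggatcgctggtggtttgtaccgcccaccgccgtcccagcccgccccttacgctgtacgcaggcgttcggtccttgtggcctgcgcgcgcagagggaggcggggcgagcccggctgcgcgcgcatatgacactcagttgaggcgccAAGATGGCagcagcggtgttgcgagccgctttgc
Mrpl32: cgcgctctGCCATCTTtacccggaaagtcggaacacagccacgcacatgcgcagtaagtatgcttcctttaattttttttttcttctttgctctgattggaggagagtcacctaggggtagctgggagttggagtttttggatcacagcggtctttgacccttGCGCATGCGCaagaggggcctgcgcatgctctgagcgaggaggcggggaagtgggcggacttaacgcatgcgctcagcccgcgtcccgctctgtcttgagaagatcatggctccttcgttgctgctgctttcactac
Mrps12: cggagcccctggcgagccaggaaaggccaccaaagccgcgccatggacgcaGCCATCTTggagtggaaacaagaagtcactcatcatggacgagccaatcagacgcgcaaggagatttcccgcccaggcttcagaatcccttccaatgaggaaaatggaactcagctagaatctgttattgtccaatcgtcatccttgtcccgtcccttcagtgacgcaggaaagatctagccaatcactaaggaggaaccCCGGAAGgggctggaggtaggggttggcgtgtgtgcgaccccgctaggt
Mrps24: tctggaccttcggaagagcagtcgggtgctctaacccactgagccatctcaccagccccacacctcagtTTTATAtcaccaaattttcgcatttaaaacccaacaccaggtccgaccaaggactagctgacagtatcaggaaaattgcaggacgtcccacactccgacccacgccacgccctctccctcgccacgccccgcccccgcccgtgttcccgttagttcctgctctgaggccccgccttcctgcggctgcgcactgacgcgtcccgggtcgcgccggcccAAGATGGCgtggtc

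The mean over the 20 libraries had a median of 6.47 over the 77 genes, from 2.69 (Mrps36) to 8.71 (Mrpl15), against a median of 5.18 for all genes. The mean over the members was 6.19 to 6.24 in the Trim71-cond libraries, 6.15 to 6.19 in Trim71-KO, 6.10 to 6.13 in WT, 6.08 to 6.14 in R595H/+ and 6.08 to 6.12 in R595H/R595H. The spread between libraries of a group (SD) had a median of 0.108 over the members, with Mrps30 lowest at 0.059 and Mrps12 highest at 0.183. For the 9505 genes of the table in the same range of levels the median SD was 0.113.

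Levels between genes were compared per kilobase of the longest principal transcript, on the log2 scale. The order depends on this length, which leaves out other annotated exons. Mrpl42 has 666 bases in that transcript and 3682 in all its exons, and Mrpl33 has 478 and 7326. Mrpl42, a large-subunit protein without a bacterial homolog, had the highest level per kilobase at 7.98, followed by Mrps24 at 7.45, Mrpl24 at 7.41 and Mrpl33 at 7.38. At the low end were Mrps26 at 2.71, Mrpl48 at 3.02, Mrps36 at 3.20 and Mrps33 at 3.43. The medians of the role groups were close together, at 5.76 for the large-subunit homologs, 5.57 for the other large-subunit proteins, 5.59 for the small-subunit homologs and 5.34 for the other small-subunit proteins. Annotated pseudogenes with at least 95% identity over 200 bases exist for 18 members, Mrpl32 and Mrps36 among them, and 32 members share exonic bases with another gene. The library kit does not mark strand, so reads of such overlaps could be counted for either gene.

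For a few members the conditional libraries and the clones lay further apart than the genotypes did, and 2 of them are given as examples. Mrpl12, the stalk protein that recruits translation factors, was at 7.62 ± 0.11 (SD, n = 4) in Trim71-cond and 7.43 ± 0.10 (n = 4) in Trim71-KO, and at 6.96 ± 0.10 (n = 3), 6.97 ± 0.21 and 6.97 ± 0.05 in the clones with no, one and both R595H alleles. Mrpl55 was at 6.00 ± 0.13 and 6.09 ± 0.15 in the conditional groups and at 5.52 ± 0.05, 5.67 ± 0.08 and 5.57 ± 0.14 in the clones in the same order. Neither gene's conditional libraries overlapped with its clones. The 2 sets differ in their starting cells and handling, and these cannot be told apart from each other.

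**Figure D2:**
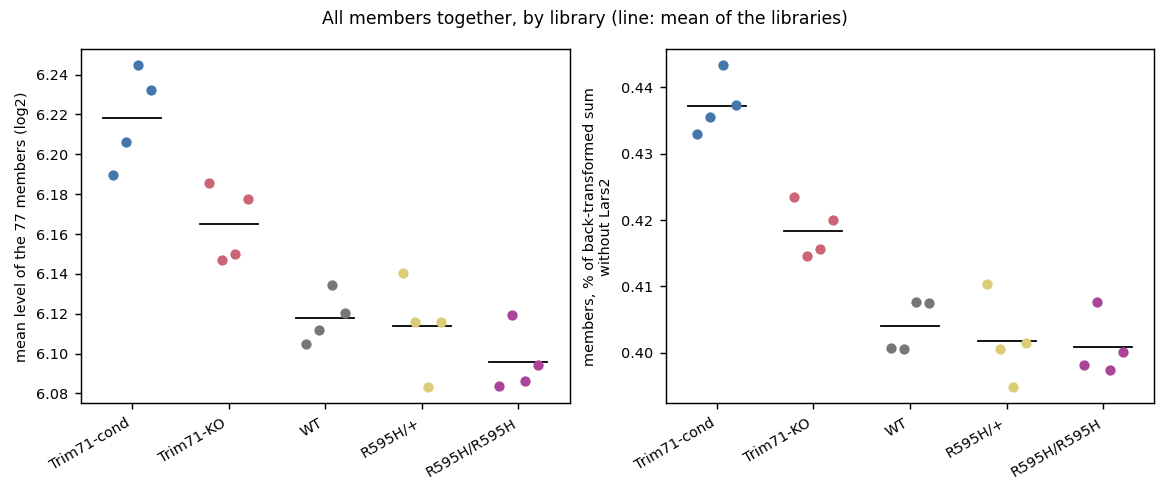
Mean log2 level of the 77 members (left) and their share of the back-transformed sum without Lars2, in percent (right), for each library by genotype, with the mean of the libraries as a line. The 4 Trim71-KO libraries, from 0.415% to 0.424%, lie below the 4 Trim71-cond libraries, from 0.433% to 0.443%, and the clones lie lower still without separating by genotype.

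Deletion of Trim71 was accompanied by small changes in a few members, mostly downward. In Trim71-KO against Trim71-cond, 6 of the 76 tested members fell (Mrps12, Mrpl49, Mrpl32, Mrpl11, Mrpl17 and Mrpl15) and 2 rose (Mrps24 and Mrpl13), at an adjusted p under 0.05 in limma. Their levels in Trim71-KO were between 77.7% and 114% of those in Trim71-cond. The log2 of the summed level of the neural progenitor markers was 7.60 to 7.84 in Trim71-cond and 7.90 to 8.17 in Trim71-KO, which do not overlap, and that of the 2 trophectoderm markers was 5.70 to 6.38 and 5.33 to 5.95, which do. Primitive endoderm markers summed to 3.72 to 3.79 and 3.71 to 3.74. Naive stem cell markers summed to 13.14 to 13.24 in Trim71-cond and 13.30 to 13.41 in Trim71-KO, which do not overlap. The part of all these markers in the members' differences was not tested. Mrps36 was left out of the test because its mean of 2.69 is under the filter. The 8 called members are 10.5% of those tested, below the 18.6% called among all 9580 genes, of which 9.24% were called higher and 9.37% lower. With the code as a block 4 members were called, all falls (Mrps12, Mrpl49, Mrpl32 and Mrpl11). Without Trim71-KO 2B the count was 2, and without any one of Trim71-KO 1A, Trim71-KO 3A, Trim71-cond 2B and Trim71-cond 3B it was 4. The genes called were among the 8 in these fits, except that without Trim71-cond 2B the 4 were 3 of them and Mrpl35. In bulk RNA, a change in the share of cells that express a gene and a change in its RNA per cell cannot be told apart.

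The direction leaned downward over the members as a whole. The difference was below 0 in 50 of the 76 members, or 65.8%, against 50.6% of all genes tested. Its median was -0.05 on the log2 scale and ranged from -0.36 to 0.19, against a median of -0.003 for all genes. An unadjusted p under 0.05 was reached by 16 members that were lower and 2 that were higher, where 16.5% and 16.2% of all genes reached it. Groups did not overlap for 11 lower members and 2 higher ones, against 10.2% and 10.6% of all genes.

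By the library pairs that share a code, the median of the members was -0.003 for 1A, -0.10 for 2B, -0.06 for 3A and -0.06 for 3B, with 38, 54, 53 and 48 of 76 members below 0. The 1A pair therefore showed no lean, and the other 3 pairs did. As a share of the back-transformed sum without Lars2, the members held 0.433% to 0.443% of each Trim71-cond library and 0.415% to 0.424% of each Trim71-KO library, and the groups did not overlap. With Lars2 in the sum the ranges were 0.403% to 0.425% and 0.390% to 0.409%, which overlap.

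**Figure D3:**
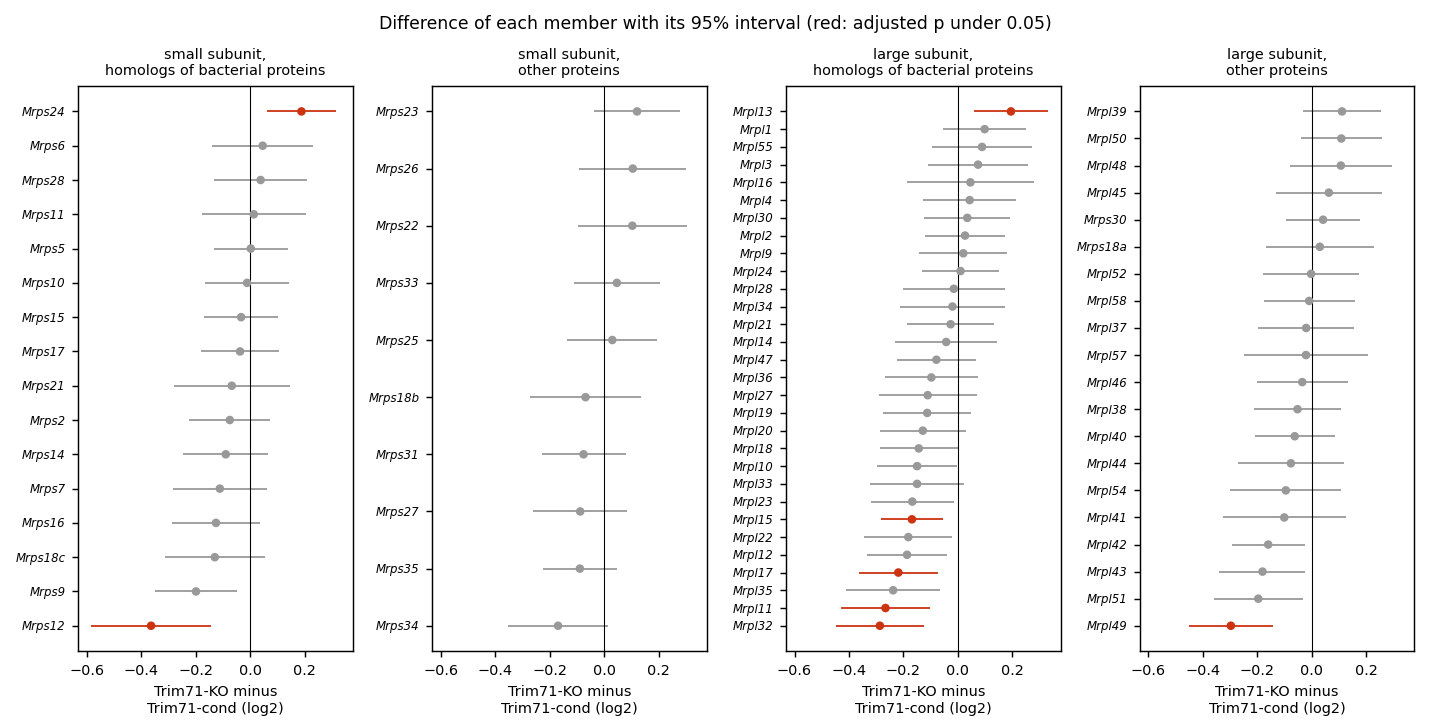
Log2 difference of Trim71-KO minus Trim71-cond for each of the 76 tested members with its 95% interval, in 4 panels by role and sorted within each, with the 8 members at an adjusted p under 0.05 in red. Most points lie between -0.2 and 0.1, and the panel of the 30 large-subunit homologs holds 5 of the 8 red points.

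Among the small-subunit homologs of bacterial proteins, 1 of 16 fell and 1 rose (12.5%, against 18.6% of all genes), with a median difference of -0.05. Mrps12, a protein of the decoding center (chromosome 7, 28739641 to 28741820), was at 5.70, 5.52, 5.69 and 5.17 in Trim71-cond 1A, 2B, 3A and 3B and at 5.07, 5.03, 5.27 and 5.26 in Trim71-KO. Trim71-cond 3B was low, within the range of the knockout libraries, so the groups overlapped and the pair 3B went the other way. The difference of -0.36 ± 0.11 (SE, adjusted p = 0.0213) was the largest fall of the members tested, and Mrps12 also had the largest spread within groups. Without both 1A libraries it was -0.28, with an adjusted p of 0.118, and it was not called without Trim71-cond 3A, Trim71-cond 2B or Trim71-KO 2B either (adjusted p = 0.0707, 0.0530 and 0.0643).

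Mrps24, which lines the channel where mRNA enters (chromosome 11, 5703983 to 5715680), was at 7.40, 7.57, 7.52 and 7.50 in Trim71-cond 1A, 2B, 3A and 3B and at 7.73, 7.67, 7.65 and 7.69 in Trim71-KO. Every knockout library was above every Trim71-cond library, with a difference of 0.19 ± 0.06 (adjusted p = 0.0377). With the code as a block the adjusted p was 0.0902, without trend and robust it was 0.0559, and without both 1A libraries the difference was 0.14 with an adjusted p of 0.261. Of the 8 libraries, Trim71-cond 2B was the one that could be left out with the call kept (highest adjusted p of the others 0.138). Mrps24 shares 226 exonic bases with Urgcp on the same strand, and Urgcp fell by 0.30 ± 0.08 (adjusted p = 0.0167), the opposite direction.

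None of the 10 other small-subunit proteins passed the test, and 5 of them were below 0. Mrps34 had the lowest difference of this group at -0.17 and Mrps23 the highest at 0.12. The smallest adjusted p of the group was 0.187.

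Of the 30 large-subunit homologs of bacterial proteins, the largest role group, 4 fell and 1 rose (16.7%, against 18.6% of all genes), with a median difference of -0.09. Mrpl32, which an inner-membrane protease must process before it joins the ribosome (chromosome 13, 14608184 to 14613165), was at 6.35, 6.53, 6.29 and 6.43 in Trim71-cond 1A, 2B, 3A and 3B and at 6.12, 6.02, 6.21 and 6.10 in Trim71-KO. Each knockout library was below all 4 Trim71-cond libraries. The difference was -0.29 ± 0.08 (adjusted p = 0.0144), and the adjusted p was 0.0352 with the code as a block and 0.0560 without Trim71-cond 2B. Psma2, a proteasome subunit gene that starts 75 bases away on the other strand, fell by 0.19 ± 0.06 (adjusted p = 0.0458).

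Mrpl11, of the base of the stalk (chromosome 19, 4962147 to 4966999), was at 6.91, 7.08, 7.04 and 7.10 in Trim71-cond and at 6.89, 6.55, 6.86 and 6.77 in Trim71-KO, in the order 1A, 2B, 3A and 3B. The 1A pair differed by -0.02 and the 2B pair by -0.53, and the groups did not overlap. The difference was -0.27 ± 0.08 (adjusted p = 0.0231). It was not called without Trim71-cond 2B, Trim71-KO 2B, Trim71-cond 3B or Trim71-KO 3B, with an adjusted p of at most 0.0855.

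Mrpl17 (chromosome 7, 105803206 to 105811099), in the same order, was at 7.31, 7.30, 7.23 and 7.23 in Trim71-cond and at 6.97, 7.00, 7.00 and 7.21 in Trim71-KO. Trim71-KO 3B lay close to the Trim71-cond libraries and the other 3 did not. The difference was -0.22 ± 0.07 (adjusted p = 0.0319), with an adjusted p of 0.0683 under the block and of 0.174 without both 1A libraries. Leaving out any one library of the codes 1A and 2B, or Trim71-KO 3A, also ended the call (adjusted p of at most 0.0934).

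Mrpl15 (chromosome 1, 4773206 to 4785739) was at 8.93, 8.80, 8.81 and 8.89 in Trim71-cond and at 8.62, 8.69, 8.69 and 8.75 in Trim71-KO, again without overlap. Its difference of -0.17 ± 0.05 (adjusted p = 0.0341) was the smallest of the called falls. Under the block the adjusted p was 0.0638, with equal library totals 0.0510 and without trend and robust 0.0829, and without both 1A libraries the difference was -0.12 with an adjusted p of 0.258. The call was also lost without Trim71-cond 1A, Trim71-KO 1A, Trim71-KO 3A, Trim71-KO 2B or Trim71-cond 3B (at most 0.115).

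Mrpl13 (chromosome 15, 55534094 to 55557748) was the one large-subunit gene that rose. It was at 7.04, 6.99, 7.03 and 6.95 in Trim71-cond and at 7.19, 7.21, 7.28 and 7.11 in Trim71-KO, higher in all 4 pairs. The difference was 0.19 ± 0.07 (adjusted p = 0.0429), and the block gave an adjusted p of 0.0998. It was not called after quantile normalization (adjusted p = 0.0577), nor with any one library but Trim71-KO 3B left out (at most 0.111), nor with no filter (0.0543). Mtbp shares 330 exonic bases with it on the opposite strand and differed by -0.15 ± 0.08 (adjusted p = 0.172).

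Just past the threshold in this group were Mrpl35, at -0.24 (adjusted p = 0.0507), and Mrpl12, at -0.19 (adjusted p = 0.0676), which are named because they were called lower once both 1A libraries were left out. Mrpl12 was at 7.46, 7.62, 7.69 and 7.70 in Trim71-cond and at 7.52, 7.36, 7.33 and 7.50 in Trim71-KO, so that only the 1A pair was higher in the knockout. The small-subunit gene Mrps9 was also just past the threshold, at -0.20 (adjusted p = 0.0596). Unlike them it was not called without both 1A libraries (adjusted p = 0.157).

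Of the 20 other large-subunit proteins, 1 fell and none rose (5%, against 18.6% of all genes), with a median of -0.03. Mrpl49, a protein of the mitochondrial ribosome without a bacterial homolog (chromosome 19, 6053622 to 6057785), was at 6.62, 6.74, 6.54 and 6.57 in Trim71-cond 1A, 2B, 3A and 3B and at 6.31, 6.26, 6.31 and 6.42 in Trim71-KO. All knockout libraries were lower, and the means were 6.62 ± 0.09 (SD, n = 4) and 6.32 ± 0.07 (n = 4). The difference of -0.30 ± 0.07 had the smallest adjusted p of the members, 0.00842, and it stayed under 0.05 with any one of the 8 libraries left out (highest 0.0349). Fau, a cytosolic ribosomal protein gene that starts 59 bases away on the other strand, differed by -0.15 ± 0.06 (adjusted p = 0.119).

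**Figure D4:**
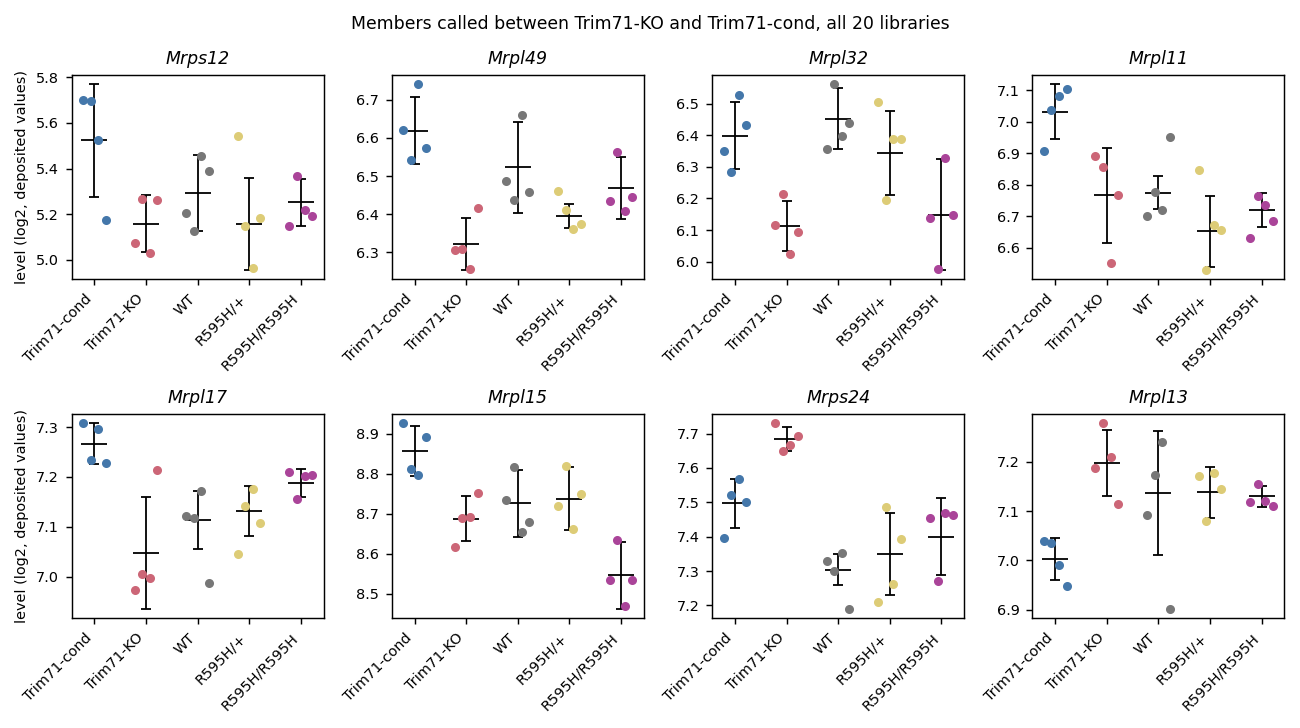
Log2 level of the 8 called members in all 20 libraries by genotype (points), with the mean and SD of the 4 libraries or 3 clones (bars). The panels have their own y ranges. Trim71-KO points lie below Trim71-cond points in the panels of Mrpl49, Mrpl32, Mrpl11, Mrpl17 and Mrpl15, overlap with them for Mrps12, and lie above them for Mrps24 and Mrpl13.

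Promoter features were set beside the same differences as a description. Calls are read against the 18.6% called among all genes tested. The 23 members with a divergent neighbour had a median of -0.10, with 19 below 0, and 3 of them fell (Mrps12, Mrpl32 and Mrpl49). The 53 without one had a median of -0.02, with 31 below 0, 3 falls and 2 rises. Members with a YY1 match numbered 12, with a median of -0.10, 9 below 0, 3 falls and 1 rise. The 55 without one had a median of -0.03, with 35 below 0 and 2 falls. As given above, the YY1 matches of Mrpl32 and Mrps12 lie beyond the start of the divergent neighbour. The 25 members with an ETS match had a median of -0.07 and 2 falls. The 42 without one had a median of -0.04, 3 falls and 1 rise. No test was made of these splits.

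Homozygous R595H clones did not differ from WT clones in any member at an adjusted p under 0.05, while 3.42% of 9588 genes did. An unadjusted p under 0.05 was reached by 2 higher and 4 lower members, where 10.7% and 10.4% of all genes reached it. The difference was below 0 in 49 of 76 members, against 50.6% of all genes, and its median was -0.04, against -0.002. Groups did not overlap for 7 higher and 10 lower members, against 14.3% and 15.4% of all genes.

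The smallest adjusted p in this comparison belonged to Mrpl9, a large-subunit homolog. It was at 6.47, 6.58 and 6.58 in the WT clones C16, C7 and C5 and at 6.87, 6.72 and 7.00 in the R595H/R595H clones C14, C20 and C24, which do not overlap. The difference was 0.32 ± 0.10 (adjusted p = 0.0805), and leaving out clone C20 gave 0.40 with an adjusted p of 0.0446. Leaving out C21, a heterozygous clone that enters the shared estimate of the spread, gave an adjusted p of 0.0443. In the knockout Mrpl9 differed by 0.02.

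Mrpl32 was at 6.40, 6.56 and 6.40 in WT C16, C7 and C5 and at 6.14, 5.98 and 6.33 in R595H/R595H C14, C20 and C24. Its difference of -0.30 ± 0.10 (adjusted p = 0.112) had about the size of its fall in the knockout but did not pass the test. Mrpl15 was at 8.71, 8.82 and 8.65 in WT and at 8.53, 8.63 and 8.47 in R595H/R595H, again without overlap, a difference of -0.18 ± 0.08 (adjusted p = 0.187). The other members named here were Mrpl39, with 0.23 ± 0.08 (adjusted p = 0.106), and Mrps22, with -0.20 ± 0.08 (adjusted p = 0.154). Of the remaining members called in the knockout, Mrps24 differed by 0.10, Mrpl17 by 0.07, Mrpl13 by -0.01, Mrps12 by -0.04, Mrpl49 by -0.05 and Mrpl11 by -0.06, none past the test.

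Heterozygous clones showed no call among the members, and none among all 9588 genes (0%). An unadjusted p under 0.05 was reached by 1 higher and 3 lower members, where 4.01% and 3.67% of all genes reached it, and the median was 0.004. Mrpl3, which reaches toward the peptidyl transferase center, was at 6.89, 6.89 and 6.91 in the R595H/+ clones C15, C21 and C23, above the WT clones C16, C7 and C5 at 6.56, 6.55 and 6.66. The difference was 0.31 ± 0.07 with an adjusted p of 0.461. Mrps9 at -0.22, Mrps14 at -0.19, Mrps30 at -0.17 and Mrpl16 at 0.19 followed, with adjusted p-values of 0.585 or more.

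Between R595H/R595H and R595H/+ no member was called, against 0.772% of all genes, and 4 members each way reached an unadjusted p under 0.05, where 9.53% of all genes reached it upward and 9.17% downward. The comparisons of the clones share their samples, so these values are not independent of the ones above. Mrpl52 was lowest at -0.29 ± 0.10 (adjusted p = 0.133), with 5.25, 5.33 and 5.19 in the homozygous clones C14, C20 and C24 and 5.53, 5.67 and 5.46 in the heterozygous clones C15, C21 and C23. Mrps11 was highest at 0.25 ± 0.10 (adjusted p = 0.214), and Mrpl39 (0.23), Mrpl15 (-0.19) and Mrps33 (-0.21) had adjusted p-values from 0.147 to 0.209.

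The knockout effect and the homozygous effect, which share no sample, were tested against each other in a fit of both sets. No member differed by this test, where 1.42% of 9588 genes did, and 1 higher and 4 lower members had an unadjusted p under 0.05, against 8.56% and 8.81% of all genes. Mrpl17 came closest, lower by 0.22 in the knockout and higher by 0.07 in the homozygous clones, a difference of -0.29 ± 0.10 (adjusted p = 0.124). Mrpl9 (-0.30), Mrps22 (0.31), Mrpl47 (-0.25) and Mrpl49 (-0.24) followed, with adjusted p-values from 0.193 to 0.255. The sign of the 2 effects was the same for 51 of 76 members (67.1%), 37 of them below 0 in both, against 61.3% of all genes. Across the 76 members the effects correlated with a Pearson r of 0.34 and a Spearman rho of 0.30, against 0.37 and 0.33 across all 9529 genes tested in both. Genes are not independent replicates, and no p is given.

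**Figure D5:**
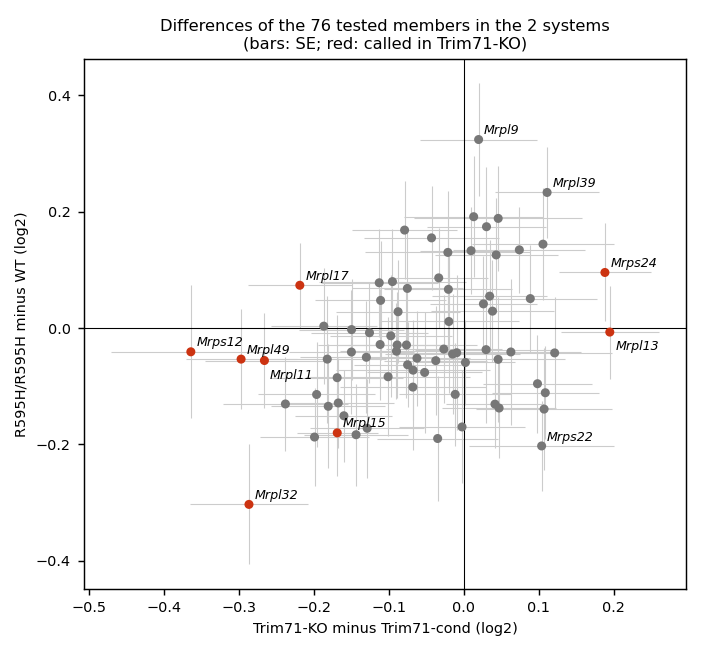
Log2 difference of Trim71-KO minus Trim71-cond (x axis) against R595H/R595H minus WT (y axis) for the 76 tested members, with bars of 1 SE and the members called in the knockout in red. Mrpl32 and Mrpl15 lie lower left in both, Mrpl9 and Mrpl39 are highest on the y axis, and 37 points are below 0 on both axes.

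Other genes of mitochondrial translation were counted from lists of textbook members. Their shares called in the knockout are read against the 18.6% of all genes, and no list was tested. Of 6 mitochondrial ribosome proteins with other symbols, 2 fell and 1 rose (50% called). Gadd45gip1, a large-subunit protein, was at 6.28, 6.64, 6.23 and 6.46 in Trim71-cond 1A, 2B, 3A and 3B and at 5.91, 5.49, 5.96 and 6.00 in Trim71-KO. The groups were apart, with a difference of -0.56 ± 0.11 (adjusted p = 0.00119), larger than that of any of the 76 members. Ptcd3 of the small subunit fell by 0.38 ± 0.08 (adjusted p = 0.00296), and Ndufab1, the acyl carrier protein, rose by 0.42 ± 0.07 (adjusted p = 0.000465). The groups of Ptcd3 overlapped, with Trim71-KO 1A at 8.38 and Trim71-cond 1A at 8.33.

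Among 26 tested genes of ribosome assembly and rRNA modification, 4 fell (Mtg2 at -0.33, Rcc1l at -0.31, Rbfa at -0.30 and Dhx30 at -0.23) and 1 rose, or 19.2%, close to the share of all genes. Their difference was below 0 in 19 of the 26 (73.1%, against 50.6% of all genes), with a median of -0.09. It was below 0 in 8 of 15 translation factors and in 10 of 20 genes of aminoacyl-tRNA formation. Grsf1, an RNA-binding protein of mitochondrial RNA granules, was 0.29 ± 0.07 higher in the knockout (adjusted p = 0.00669). It was also 0.55 ± 0.07 higher in R595H/R595H than in WT (adjusted p = 0.00192), at 9.82 to 9.89 in the 4 homozygous libraries and 9.28 to 9.36 in the 4 WT libraries. Of 15 translation factors Tufm, the elongation factor that delivers tRNA, was the one that changed (6.67%), by -0.24 ± 0.07 (adjusted p = 0.0263). Among 20 genes of mitochondrial aminoacyl-tRNA formation, Hars2 rose by 0.38 and Ears2 and Iars2 fell by 0.32 and 0.18, or 15% called. None of 11 genes of mitochondrial DNA replication and transcription was called in limma, and 1 each way had an unadjusted p under 0.05.

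Of 7 protein genes of the mitochondrial genome in the table, 2 rose in the knockout and none fell (28.6% called). The median difference of the 7 was 0.39, although poly(A) selection need not catch these transcripts evenly. mt-Co1, of cytochrome c oxidase, was at 14.06, 14.14, 13.93 and 14.27 in Trim71-cond 1A, 2B, 3A and 3B and at 14.44, 14.53, 14.43 and 14.54 in Trim71-KO, without overlap. It rose by 0.39 ± 0.05 (adjusted p = 6.82e-05), and mt-Nd4 rose by 0.27 ± 0.08 (adjusted p = 0.0181). The groups of mt-Nd4 overlapped, with Trim71-KO 3A at 8.82 and Trim71-cond 3B at 8.89. Of 12 biogenesis regulators, Yy1, which encodes the factor whose motif was counted above, rose by 0.19 ± 0.06 (adjusted p = 0.0353) and was the one called in the knockout (8.33%). In the homozygous clones it was Gabpb2, of the GABP complex, which was 0.29 ± 0.07 higher than in WT (adjusted p = 0.0452).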

How the data were processed

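The authors deposited one table with a value per gene symbol and library. Per the submitters' processing notes it came from CASAVA 1.8, STAR and DESeq2, while no source used here names the genome build, the counting step or the transformation. The deposited values, entered as a score for a check that could not read column names made of digits, run from -0.65 to 18.0 and were read as log2 values, a base inferred from DESeq2 and not stated in the table. Values of this kind can be shrunk at low levels, so small levels may understate changes. Read counts, and so depth and counting error, cannot be recovered.

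The plan assumed linear values. Since the values turned out to be logged, they were fitted as deposited in limma 3.58.1 (lmFit, then eBayes with trend and robust; R 4.3.3), over the values of all genes with a mean of at least 3.32, which is 10 on the linear scale, and p-values were adjusted by Benjamini-Hochberg over all genes tested, with calls under 0.05. The conditional fit held 8 libraries, the clonal fit 9 clone means, and a joint fit tested the difference of the 2 effects. Share values were summed after back-transformation. The fits were tested on simulated data.

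The members and lists were chosen with earlier results of these data known. Members named in the text were those called, and otherwise the 5 with the smallest p of a comparison, those with the highest and lowest levels and the largest spread, and a few of known role. Mrpl2, Mrpl35, Mrpl44, Mrpl55, Mrps23, Mrps34 and the members extreme per kilobase were named after their values were seen. Codes 1A to 3B are shared between Trim71-cond and Trim71-KO, and the labels give the same day number to both libraries of a code, so the code was also fitted as a block. The deviations of the paired libraries correlated at -0.89, -0.09, -0.12 and 0.13 for 1A, 2B, 3A and 3B. Titles were used for the clone dates, because the day labels of some libraries differ from them. Positions are from GENCODE vM21 (GRCm38) and promoters from RefSeq (GRCm38.p6), searched with Python 3.11.15, and pseudogene copies were found with BLAST 2.17.0. Alternatives were another scaling, no filter, no trend and robust, linear values plus 8, each library or clone left out, and 5/2 libraries only.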

Additional observations from a re-analysis of the deposited data

Results flagged for a closer look

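Of 74 sets of 4 conditional libraries examined (the named members, the mean of all members and their share), 3 held a library far from the other 3, where chance alone gives about 1 in 20. Mrpl17 was at 7.21 in Trim71-KO 3B and between 6.97 and 7.00 in the other knockout libraries. Mrps18a, of the large subunit, was at 4.91 in Trim71-cond 1A and between 5.13 and 5.16 in the other Trim71-cond libraries. Mrps6, of the small subunit, was at 4.17 in Trim71-KO 1A and between 4.02 and 4.03 in the others. No member met the threshold for a difference between the knockout effect and the homozygous effect (smallest adjusted p = 0.124).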

How the results depend on the processing

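The count of 8 members called in Trim71-KO against Trim71-cond was 7 or 8 under quantile normalization, equal library totals, no filter, no trend and robust, and linear values plus 8. The genes were not always the same: Mrpl13 was lost and Mrpl35 gained under quantile normalization, Mrpl15 was lost under equal totals, Mrpl13 with no filter, and Mrps24 and Mrpl15 without trend and robust, which added Mrpl22. With the replicate code as a block it was 4, all falls (Mrpl49, Mrpl32, Mrps12 and Mrpl11), and the block changed no other count. Leaving out both 1A libraries, an alternative chosen after seeing the data, gave 5 falls, of which 3 are among the 8, with Mrpl12 and Mrpl35 added. Equal totals without Lars2, also chosen after seeing the data, gave 8, without Mrpl13 and with Mrpl35. Leaving out one library gave 2 (without Trim71-KO 2B) to 9 (without Trim71-KO 3B) calls, and Mrpl49 alone was called each time. The cause was not tested. The median difference of the members kept its sign, from -0.06 to -0.03 with one library left out and -0.08 without both 1A libraries. In R595H/R595H against WT the count was 0 to 1 with one clone left out and 0 otherwise, and no member was called in any alternative of the other comparisons. Equal totals moved the median of all genes in R595H/R595H against WT to -0.04 and that of the members to -0.08. The conditional p-values rest on 4 libraries a group and the clonal ones on 3 clones, so small differences are poorly resolved. The smallest called difference of a member in the knockout was -0.17 (Mrpl15). Between R595H/R595H and WT a difference of 0.32 (Mrpl9) was not called.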

Other observations

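A divergent neighbour was annotated for 23 members, and not all 23 neighbours were tested. Of those tested, Klc4, Wdfy1 and Psma2 were called in the knockout, where 18.6% of all genes were called. Psma2 is given above with Mrpl32, and for the other neighbours called the member itself was not. Klc4, whose start lies 207 bases from that of Mrpl2, differed by -0.38 ± 0.08 (adjusted p = 0.00422), and Mrpl2 by 0.03 ± 0.07 (adjusted p = 0.834). Wdfy1, whose transcript overlaps the start of Mrpl44 by 125 bases between start sites, differed by 0.28 ± 0.07 (adjusted p = 0.0130), and Mrpl44 by -0.08 ± 0.09 (adjusted p = 0.611). Sars2, 172 bases from Mrps12, differed by 0.03 ± 0.11 (adjusted p = 0.896) where Mrps12 fell by 0.36. Whether a member and its neighbour differ from each other was not tested.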
